A study of Mus musculus with 14 samples.

Results

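The cerebellum, the hindbrain region that coordinates movement, was set against 12 non-neural tissues of the same mouse strain by sequencing of microRNAs (miRNAs). The comparison uses 13 of the 14 libraries of the series: cerebellum on one side, and kidney, liver, oesophagus, small intestine, spleen, stomach, colon, heart, lung, ovary, pancreas and uterus on the other. These are all the libraries except brain, which appears here only for side-by-side values. Every library came from the inbred strain C57BL/6J with no treatment named, and held total RNA extracted with Trizol and pooled over animals. The number of animals is not settled by the labels, which state 5 mice where tissues were taken and 10 mice where RNA was pooled, with no age or sex. Each tissue had 1 library, so no difference below has a replicate check and no test between tissues was run. A value is a read count divided by its library's total with miR-143 left out of that total, in RPM (reads scaled to a total of 1000000), so miR-143, outside the total, can be larger than the scale. Intervals are exact at 95% and cover counting error only.

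A miRNA is a short RNA cut from a hairpin precursor by the enzymes Drosha and Dicer, and it guides an Argonaute protein to messenger RNAs that pair with its seed, bases 2 to 8 from the 5′ end. Either arm of the hairpin can be kept, and in the older names used by the table a star marks the arm taken as the less abundant. In nervous tissue miR-124 and miR-9 are known from neurons and neural progenitors, miR-219 and miR-338 from oligodendrocytes, and the imprinted Dlk1-Dio3 locus gives rise to a large group of miRNAs that are made in brain from the maternal chromosome.

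The sequences below belong to names on which the comparison turns, and capitals mark the seed of each. They are read 5′ to 3′ from RefSeq with the GRCm38.p6 mouse assembly, in which all 47 names looked up were found after conversion to current arm names. The first set holds names called higher in cerebellum by the rule given below, with miR-206, which was above all of the 12 but oesophagus, and no seed is shared within it.
miR-129-5p: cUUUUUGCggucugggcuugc
miR-9: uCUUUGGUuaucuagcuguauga
miR-9*: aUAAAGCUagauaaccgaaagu
miR-138: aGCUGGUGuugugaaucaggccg
miR-127: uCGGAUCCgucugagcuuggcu
miR-127*: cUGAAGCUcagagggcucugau
miR-370: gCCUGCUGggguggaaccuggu
miR-134: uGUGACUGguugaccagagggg
miR-541: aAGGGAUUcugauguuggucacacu
miR-204: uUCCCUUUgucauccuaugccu
miR-204*: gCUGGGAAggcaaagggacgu
miR-206: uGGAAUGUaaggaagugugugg
The arms of the miR-127 hairpin lie on the plus strand at chr12:109592888-109592909 (miR-127) and chr12:109592854-109592875 (miR-127*), miR-370 at chr12:109618305-109618326, miR-134 at chr12:109734145-109734166 and miR-541 at chr12:109742422-109742446, all within Dlk1-Dio3. Mature miR-206 lies on the plus strand at chr1:20679055-20679076. Identical mature miR-129-5p comes from chromosomes 2 and 6, and identical mature miR-9 from chromosomes 3, 7 and 13.

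The second set holds names far below the median of the 12 tissues, grouped by seed. The miR-200 family has 2 seeds that differ at 1 base (miR-141 and miR-200a against miR-200b, miR-200c and miR-429), and the other groups are miR-17 with miR-20a, miR-148a with miR-152, and miR-10a with miR-10b.
miR-141: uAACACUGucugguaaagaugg
miR-200a: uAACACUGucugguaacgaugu
miR-200b: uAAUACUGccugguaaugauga
miR-200c: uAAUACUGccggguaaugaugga
miR-429: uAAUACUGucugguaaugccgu
miR-17: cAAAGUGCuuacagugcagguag
miR-20a: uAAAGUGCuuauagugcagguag
miR-148a: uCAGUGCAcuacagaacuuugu
miR-152: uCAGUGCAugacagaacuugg
miR-10a: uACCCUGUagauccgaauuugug
miR-10b: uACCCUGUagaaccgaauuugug
miR-199a-3p: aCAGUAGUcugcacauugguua
The genes of miR-200a, miR-200b and miR-429 sit together on chromosome 4, and those of miR-141 and miR-200c on chromosome 6. The mature sequence of miR-199b is identical to that of miR-199a-3p, so reads of these names cannot be told apart.

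The cerebellum library held 1134677 reads, of which miR-143 took 4.53%, leaving 1083220. Among the 12, totals without miR-143 ran from 86545 in colon, where miR-143 took 98.7%, to 6502821 in kidney. One read was worth 0.923 RPM in cerebellum and 11.6 RPM in colon, so a count of 0 allowed 2.77 RPM in cerebellum and 34.7 RPM in colon (3 reads). The libraries labelled colon and uterus went against their labels on miR-215, an intestinal epithelial miRNA: 347 RPM in that labelled colon and 118373 RPM in that labelled uterus, beside 365682 RPM in small intestine. The second intestinal name, miR-192, gave the same order, at 1514, 60551 and 71090 RPM. Of 1046 names listed, 508 had reads in cerebellum and 280 reached 10 RPM there, and 419 reached 10 RPM in cerebellum or in any of the 12. Across these 419 the median of the log2 ratio of cerebellum to the median of the 12 was 0.86, on a scale with 1 RPM added to both, with an interquartile range of −1.33 to 3.11.

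Cerebellum differed from the 12 tissues in both directions. A name was called higher where cerebellum reached 100 RPM and exceeded the highest of the 12 by 4-fold or more, and 35 names, 8.35% of the 419, met this. A name was called lower where the median of the 12 reached 100 RPM and exceeded cerebellum by 4-fold or more, and 38 names, 9.07%, met this. Without the size limits, 125 names (29.8%) were above the highest of the 12 at 10 RPM or more, and 21 (5.01%) were below the lowest where the median of the 12 reached 10 RPM. Above the median of the 12 stood 247 names (58.9%) and below it 160 (38.2%). Calls depended on how libraries were scaled: with miR-143 kept in the totals the numbers became 50 higher and 25 lower, against 35 and 38. Without the library labelled colon 39 names were higher and 40 lower, and without that labelled uterus 35 were higher and 40 lower. Without pancreas, which held the lowest value of many names, 42 names were below the lowest in place of 21.

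**Figure D1:**
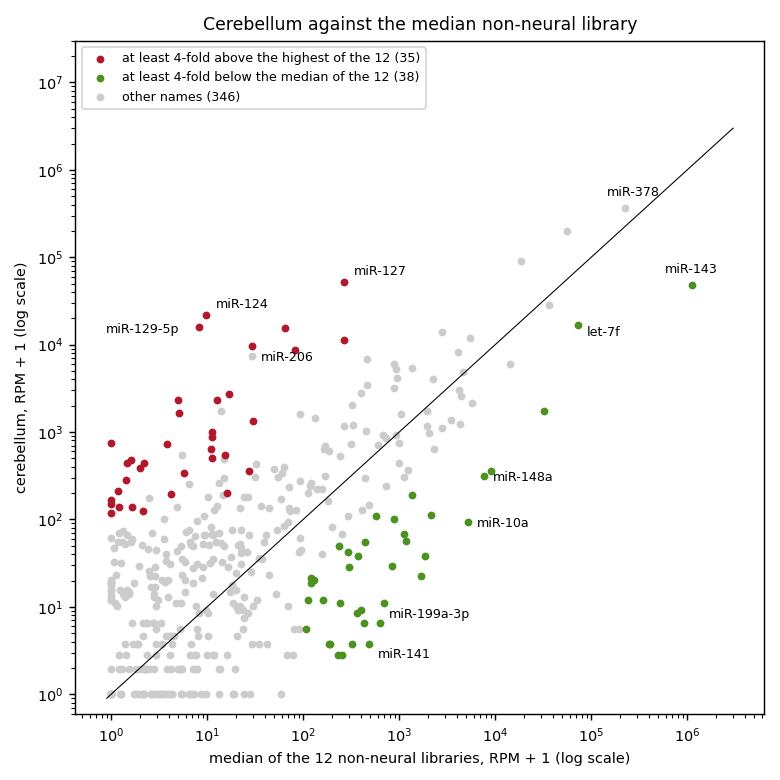
Each point is 1 of 419 miRNA names, with the median of the 12 non-neural libraries on the horizontal axis and the cerebellum library on the vertical axis, both in RPM + 1 on a log scale. The 35 names called higher (red) lie above the diagonal, up to miR-127 at 51796 RPM in cerebellum, and the 38 called lower (green) lie below it.

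A small number of names made up most of the cerebellum reads. The first was miR-378, which comes from an intron of Ppargc1b and is known from metabolic tissues, at 361515 RPM in cerebellum and 25026 RPM in brain. Its lowest, median and highest values in the 12 were 47572 (lung), 224543 and 495327 RPM (stomach), so cerebellum lay within the non-neural range and 14.4-fold above brain. After it came let-7c, let-7b, miR-127, miR-143, let-7a and miR-124. With miR-143 set aside, the leading 10 names held 81.7% of the remaining reads. By rank order over the 457 names that reach 10 RPM in any library, the cerebellum library was most like brain (Spearman rho 0.809), then heart (0.598). The lowest value was that of spleen (0.460), and over the 248 names at 100 RPM or more, that of small intestine (0.300). These are descriptions of single libraries that differ in depth.

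The 3 names fixed as marks of cerebellum for this comparison were all abundant in it. Their levels are no independent check of the library, and in brain too each was above all 12. The neuronal miRNA miR-124, which represses non-neuronal transcripts, was at 21746 RPM in cerebellum (interval 21469 to 22026) and 5878 RPM in brain, and its lowest, median and highest values in the 12 were 2.94 (heart), 8.81 and 67.3 RPM (stomach). Cerebellum therefore had 323 times the highest non-neural library (interval 278 to 378). miR-129-5p, which represses the potassium channel Kcna1 in neurons, was at 15731 RPM in cerebellum, 992 RPM in brain, and 0 (ovary), 7.30 and 75.1 RPM (uterus) as lowest, median and highest of the 12. That is 209 times the highest of the 12 (interval 186 to 236) and 15.9 times brain (interval 15.4 to 16.4). The opposite arm of one miR-129 hairpin, miR-129-2-3p, was at 284 RPM in cerebellum and 137 RPM in brain, and at most 16.7 RPM in the 12 (stomach). miR-124 and both miR-129 names were called higher, by a rule that puts every non-neural library below cerebellum. Of all names, 29.8% were above the highest of the 12 at 10 RPM or more. The other marker, miR-127, is described with its locus below.

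The neuronal list has 19 names, of which 17 were matched and had reads. All 17 were above the median of the 12, beside 58.9% of all names. Of the 17, 14 were above the highest of the 12, beside 29.8%, and 7 were called higher, beside 8.35%. Their median log2 ratio was 5.29, beside 0.86 over all names, and they summed to 67320 RPM in cerebellum, 101185 RPM in brain and 41.0, 285 and 1437 RPM (stomach) as lowest, median and highest of the 12 (the order used for such triplets below). In pooled bulk tissue, more cells of a type and more RNA per cell cannot be told apart. Among the 7, miR-9, which acts in neural progenitors, was at 15403 RPM in cerebellum and 66484 RPM in brain, and at 0 (ovary), 63.0 and 628 RPM (stomach) in the 12. Its opposite arm miR-9* was at 2341 RPM in cerebellum and 2531 RPM in brain, and at 36.6 RPM at most in the 12. The arms of this hairpin thus differed in how cerebellum stood to brain: 0.232 times brain for miR-9 and 0.925 times for miR-9*. Other scalings multiplied every ratio of cerebellum to brain by 1.02 to 1.53, so ratios within that distance of 1, such as that of miR-9*, had no settled direction.

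Other neuronal names were also clearly above the 12, with levels on either side of brain. The dendritic spine regulator miR-138 was at 9602 RPM in cerebellum and 12845 RPM in brain, and at 10.1 (liver), 28.2 and 363 RPM (stomach) in the 12, 26.5 times the highest. miR-128, a brain miRNA linked to neuronal excitability, was at 1328 RPM in cerebellum and 6790 RPM in brain, and at 129 RPM at most in the 12 (oesophagus), 10.3 times (interval 9.33 to 11.4). miR-488 was at 444 RPM in cerebellum and 166 RPM in brain, and at 4.38 RPM at most in the 12 (stomach). Of the 17 names 4 were higher in cerebellum than in brain (miR-124, miR-124*, miR-129-5p and miR-488), and miR-9* and miR-138 moved above it without miR-143 and miR-378 in the totals. The activity-regulated miR-132 was at 127 RPM in cerebellum, 718 RPM in brain and at most 56.9 RPM in the 12.

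Of the neuronal names, 3 did not exceed the non-neural libraries. miR-137, which acts in forebrain neurons and in neural stem cells, was at 13.8 RPM in cerebellum (15 reads, interval 7.75 to 22.8) and 1502 RPM in brain, and at 0 (pancreas), 4.92 and 68.2 RPM (uterus) in the 12. Cerebellum was below 4 of the 12 and at 0.00922 times brain. miR-153 was at 12.9 RPM in cerebellum, 405 RPM in brain and 15.1 RPM in stomach, and miR-212-3p at 5.54 RPM in cerebellum and 52.2 RPM in brain. The testis and brain miRNA miR-383 was at 180 RPM in cerebellum and 1692 RPM in brain, and at 97.6 RPM at most in the 12 (kidney). These 4 names were at least 9-fold below brain while their positions against the 12 differed.

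**Figure D2:**
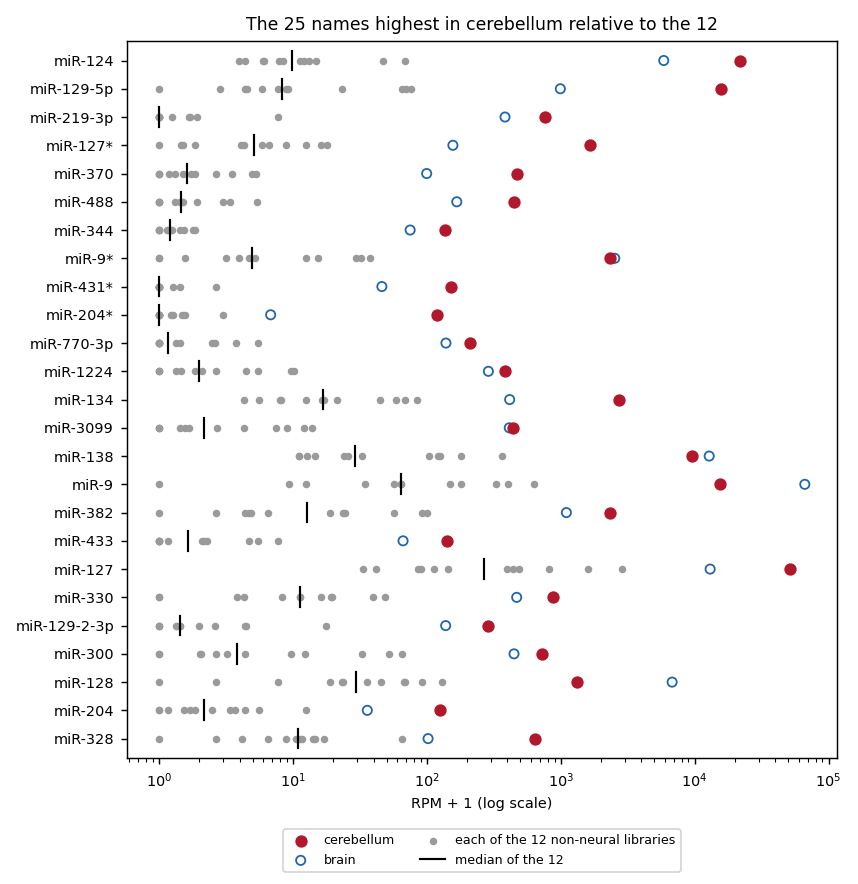
The 25 names called higher with the largest ratio of cerebellum to the highest of the 12, 1 per line, with RPM + 1 on a log scale: cerebellum (filled red), brain (open blue), each of the 12 non-neural libraries (grey) and their median (black tick). Red points stand apart from all grey points by 4-fold or more, while blue points lie on either side of the red ones, as for miR-129-5p (15731 RPM in cerebellum, 992 RPM in brain) and miR-9 (15403 and 66484 RPM).

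The oligodendrocyte and choroid plexus lists are short. In the oligodendrocyte list miR-338-3p was at 549 RPM in cerebellum, 586 RPM in brain and 0, 14.2 and 111 RPM (oesophagus) in the 12, and its opposite arm miR-338-5p at 504 RPM in cerebellum, 482 RPM in brain and 108 RPM at most in the 12. The other listed name, miR-219-5p, had 10 reads in cerebellum, while miR-219-3p, an arm of a miR-219 hairpin outside the list, was at 757 RPM in cerebellum, 383 RPM in brain and at 0 in 7 of the 12, with 6.77 RPM at most (stomach). miR-204, made in the choroid plexus of the ventricles, was at 125 RPM in cerebellum and 34.9 RPM in brain. Its highest non-neural value, 11.6 RPM in colon, is 1 read, which leaves the ratio at 10.8 with an interval of 1.90 to 429. miR-204* was at 117 RPM in cerebellum and 5.82 RPM in brain, a ratio of 20.1 (interval 13.4 to 31.3), and 13 reads in the highest of the 12 (kidney). miR-211, the other choroid plexus name, had 2 reads in cerebellum.

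Names of the Dlk1-Dio3 locus on chromosome 12 took 8.74% of cerebellum reads, 5.40% of brain reads and 0.139% in the median non-neural library, all of totals without miR-143. Of 70 names listed, 66 were matched and 63 had reads. Of the 63, 39 reached 10 RPM in cerebellum or in any of the 12, the level required of all names in the shares given here. Of these 39, 13 were called higher, beside 8.35% of all names. Above the highest of the 12 at 10 RPM or more were 28 of the 39, beside 29.8%. Of the 63 names with reads, 59 stood above the median of the 12 and 4 were at 0 in cerebellum. The median log2 ratio was 3.22 over the 63 and 4.61 over the 39, beside 0.86 over all names. The sums of the 63 were 87431 RPM in cerebellum, 53958 RPM in brain and 199, 1392 and 8119 RPM (stomach) in the 12. Among names with an annotated hairpin, 13 of 33 called higher and 51 of 341 tested lie on chromosome 12.

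The locus has 2 groups of hairpins separated by its largest gap in RefSeq, and cerebellum stood differently to brain in each. The first group runs from Mir770 to Mir370 and includes miRNAs made antisense to Rtl1, a gene active on the paternal chromosome. Its 20 names with reads summed to 64786 RPM in cerebellum, 23796 RPM in brain and 45.7, 533 and 3681 RPM (stomach) in the 12. Of the 20, 14 reached 10 RPM in cerebellum or in any of the 12. Of these 14, 9 were called higher, beside 8.35% of all names at that level. The second group runs from Mir379 to Mir410. Its 38 names with reads summed to 22560 RPM in cerebellum, 30017 RPM in brain and 140, 856 and 4936 RPM (oesophagus) in the 12. Of the 38, 22 reached 10 RPM in cerebellum or in any of the 12. Of these 22, 4 were called higher, beside the same 8.35%. Among names at 10 RPM or more in cerebellum or brain, 10 of 15 in the first group were higher in cerebellum than in brain, with a median log2 ratio of 0.53. In the second group 6 of 32 were, with a median of −2.90. Under 3 other scalings these counts were 10 to 12 and 6 to 7. The split was drawn after the values were seen and is a description.

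In the first group miR-127, which targets Rtl1, led with 51796 RPM in cerebellum (interval 51368 to 52226) and 13059 RPM in brain. Its lowest, median and highest values in the 12 were 32.6 (liver), 268 and 2867 RPM (stomach), so cerebellum had 18.1 times the highest (interval 17.6 to 18.5) and 3.97 times brain. miR-127* was at 1659 RPM in cerebellum and 156 RPM in brain, and at 0, 4.10 and 17.0 RPM (uterus) in the 12, 97.3 times the highest. Both arms were called higher, and that rule leaves no non-neural library overlapping cerebellum. miR-370 was at 475 RPM in cerebellum and 98.8 RPM in brain, and at 4.26 RPM at most in the 12 (uterus), 111 times (interval 67.9 to 196). miR-434-3p, also antisense to Rtl1, was nearly equal in cerebellum and brain, at 8731 and 7835 RPM, with 1560 RPM at most in the 12 (colon). miR-431* was at 150 RPM in cerebellum and 45.2 RPM in brain, and its highest non-neural value, 1.67 RPM in pancreas, is 1 read.

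In the second group miR-134, which limits the size of dendritic spines, was at 2738 RPM in cerebellum and 415 RPM in brain, and at 3.35, 15.8 and 83.2 RPM (stomach) in the 12, 32.9 times the highest. Also higher in cerebellum than in brain were miR-541, at 11241 RPM in cerebellum, 5348 RPM in brain and 1789 RPM at most in the 12 (oesophagus), and miR-382, at 2331, 1101 and 99.1 RPM (stomach). The rest included names far below brain. The first hairpin of the group, miR-379, was at 2823 RPM in cerebellum and 13742 RPM in brain, yet above the highest of the 12, 1172 RPM in stomach. Its near neighbour miR-411 was at 200 RPM in cerebellum and 3313 RPM in brain, and below 3 of the 12, with 1359 RPM in oesophagus. miR-380-3p had 3 reads in cerebellum (2.77 RPM) beside 151 RPM in brain. Neighbouring hairpins thus stood on opposite sides of brain in the cerebellum library.

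Names on none of the lists also stood apart from the 12. miR-344 was at 137 RPM in cerebellum, 74.1 RPM in brain and at most 0.866 RPM in the 12 (lung), which is 2 reads. miR-330 was at 876 RPM in cerebellum, 468 RPM in brain and 47.7 RPM at most in the 12 (lung), and miR-328 at 641, 101 and 64.5 RPM (lung). Over the 35 names called higher, 19 were at least 2-fold above brain (20 to 25 under 3 other scalings), beside 94 of all 419. At least 2-fold below brain were 2 (miR-9 and miR-128), beside 149 of all 419. The cerebellum value enters both the rule for these 35 names and the ratio to brain, so an excess above brain is partly built in. The median GC content of the hairpins was 51.2% for the 33 called higher that have one annotated, and 48.8% for the 341 tested names that have one.

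Names of small RNAs made outside the usual Drosha route, with miR-744, formed a list of 5. All 5 were above the highest of the 12, beside 29.8% of all names. The 1 called higher was miR-1224, cut from a short intron without Drosha, at 384 RPM in cerebellum, 287 RPM in brain and 9.16 RPM at most in the 12 (stomach). miR-320 was at 1445 RPM in cerebellum and 81.3 RPM in brain, and at 16.7, 132 and 441 RPM (oesophagus) in the 12, 3.28 times the highest (interval 3.06 to 3.51). miR-744 was at 1609 RPM in cerebellum and 26.5 RPM in brain, and at 1.99, 90.8 and 750 RPM (lung) in the 12, 2.14 times the highest and 60.7 times brain. For miR-484 and miR-877 the interval of the ratio to the highest library reached below 1 (0.468 to 2.99 and 0.822 to 1.88). For miR-320 and miR-744 brain lay below the non-neural median while cerebellum lay above every non-neural library.

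Of the broadly expressed families, the 4 miR-181 names were each above the highest of the 12, beside 29.8% of all names, and none was called higher. They ranged from 306 RPM (miR-181c) to 3189 RPM (miR-181a) in cerebellum, and miR-181a reached 1926 RPM in lung. miR-125a-5p, the mammalian counterpart of a worm developmental timing miRNA, was at 6831 RPM in cerebellum and 1123 RPM in brain, and at 10.0 (pancreas), 459 and 1964 RPM (colon) in the 12. Its ratio to the highest was 3.48 (interval 2.99 to 4.07), and without colon it was called higher. miR-99b, from the same cluster, was at 6023 RPM in cerebellum and 8915 RPM in lung, so it did not exceed the 12.

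**Figure D3:**
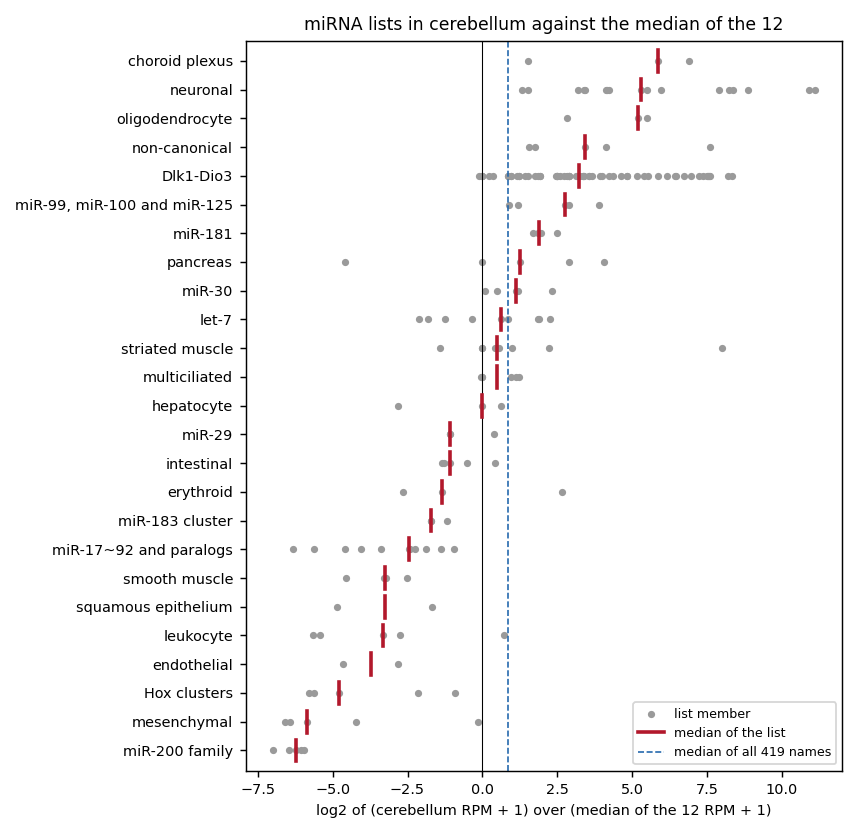
Log2 ratio of cerebellum to the median of the 12 non-neural libraries (RPM + 1) for every list member with reads (grey), with the median of each list (red) and the median of all 419 names (dashed line, 0.86). The neuronal list has a median of 5.29 and lies to the right, and the miR-200 family has a median of −6.23 and lies to the left.

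The let-7 family, known for promoting differentiation, divided in cerebellum. Its 9 names summed to 350484 RPM in cerebellum, 688639 RPM in brain and 67479, 200770 and 872786 RPM (ovary) in the 12. The members share 1 seed and differ by few bases outside it, as the sequences of 5 members show, with positions counted from the 5′ end of let-7c.
let-7b: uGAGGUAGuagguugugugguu
let-7c: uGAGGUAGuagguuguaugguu
let-7a: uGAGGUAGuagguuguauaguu
let-7f: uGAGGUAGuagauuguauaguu
let-7d: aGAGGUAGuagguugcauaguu
Against let-7c, let-7b has A17G, let-7a has G19A, let-7f has G12A and G19A, and let-7d has U1A, U16C and G19A. let-7b was at 89806 RPM in cerebellum, against 6670 (oesophagus), 18639 and 85080 RPM (ovary) in the 12, and let-7c at 201412 RPM, against 26317 (heart), 55736 and 318396 RPM (ovary). let-7f was at 16899 RPM in cerebellum and 285484 RPM in brain, against 14499 (heart), 73005 and 358669 RPM (spleen) in the 12. let-7b was thus above every non-neural library, by 1.06-fold over ovary (interval 1.04 to 1.07) and not under median-of-ratios scaling, and let-7f was called lower.

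The log2 ratios of cerebellum to the median of the 12 were 2.27 for let-7b, 1.88 for miR-98, 1.85 for let-7c, 0.85 for let-7i and 0.62 for let-7e. They were −0.36 for let-7a, −1.26 for let-7g, −1.80 for let-7d and −2.11 for let-7f. Under each of 3 other scalings let-7f was no longer called lower. The sign of let-7a turned with miR-143 kept in the totals (0.64) and under median-of-ratios scaling (0.0064), and that of let-7g with miR-143 kept (0.27). The mature sequences hold from 7 (let-7f, miR-98) to 10 (let-7b) G or C bases. How reads that match several of these members were assigned is not given in the sources used here, so values of single members are uncertain.

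Names known from striated muscle gave a mixed picture, in which miR-206 stood far above all non-neural libraries but oesophagus. miR-206, known from skeletal muscle and its neuromuscular junctions, was at 7482 RPM in cerebellum (interval 7320 to 7647) and 490 RPM in brain. Its lowest, median and highest values in the 12 were 3.35 (pancreas), 28.0 and 55270 RPM (oesophagus, whose wall holds skeletal muscle in mice), and the second highest was 347 RPM in colon. Cerebellum was therefore 267 times the median, above 11 of the 12 and 0.135 times oesophagus. Without oesophagus miR-206 would be called higher.

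The rest of the muscle list lay within the range of the 12. miR-1, the main miRNA of heart and skeletal muscle, was at 2142 RPM in cerebellum and 3374 RPM in brain, and at 41.8 (liver), 5659 and 405138 RPM (heart) in the 12. Its partner in muscle, miR-133a, was at 29.5 RPM in cerebellum and 12.2 RPM in brain, with a median of 21.7 and a highest value of 1946 RPM (heart) in the 12. Of the 8 names 5 were above the median, beside 58.9% of all names, and none was above the highest. miR-208a-3p and miR-208b were at 0 in cerebellum. The list summed to 9669 RPM in cerebellum, 3880 RPM in brain and 63.8, 5694 and 418230 RPM (oesophagus) in the 12. Reads of miR-206 were 3.49 per read of miR-1 in cerebellum, 0.145 in brain, 0.152 in oesophagus and 0.522 at most in the 12 (liver). The ratio of these names in cerebellum was thus outside the range of all 12 libraries. What part muscle RNA had in the miR-206 value was not tested.

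Pancreatic names were far below pancreas and in other proportions to each other. miR-217, known from pancreatic acinar cells, was at 80.3 RPM in cerebellum (interval 64.3 to 99.1) and 62.2 RPM in brain, and at 0 (ovary), 9.99 and 3091 RPM (pancreas) in the 12. miR-216a, from the same cluster, was at 58.2 RPM in cerebellum and 53.8 RPM in brain, and at 0, 2.58 and 610 RPM (pancreas) in the 12. Both were above the median and below pancreas and colon, and miR-217 was also below uterus, at 82.0 RPM. miR-148a, the leading miRNA of the pancreas library, was at 317 RPM in cerebellum and 1080 RPM in brain, and at 1556 (kidney), 7664 and 651758 RPM (pancreas) in the 12, so cerebellum was below all 12. Reads of miR-217 were 0.254 per read of miR-148a in cerebellum, 0.0576 in brain, 0.00474 in pancreas and at most 0.0338 in the 12. The list summed to 477 RPM in cerebellum, 1210 RPM in brain and 1573 RPM in the lowest of the 12. miR-375, known from islets and other endocrine cells, was at 16.6 RPM in cerebellum with a median of 16.9 RPM in the 12.

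Names of liver and intestine were within the non-neural range. miR-122, the main hepatocyte miRNA, was at 126 RPM in cerebellum and at 10.0, 82.4 and 466024 RPM (liver) in the 12. miR-215 was at 913 RPM in cerebellum and 155 RPM in brain, with a median of 680 RPM in the 12, and miR-192 at 1103 RPM with a median of 2782 RPM.

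**Figure D4:**
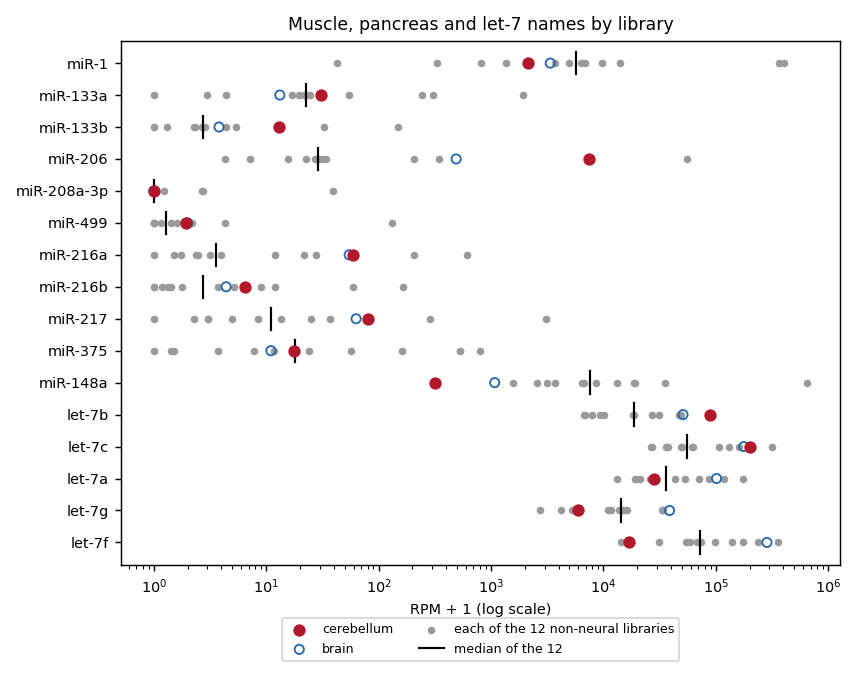
Muscle, pancreas and let-7 names, with RPM + 1 on a log scale: cerebellum (filled red), brain (open blue), each of the 12 non-neural libraries (grey) and their median (black tick). For miR-206 the cerebellum point (7482 RPM) lies below a single grey point (oesophagus, 55270 RPM) and far to the right of the rest, while miR-1 (2142 RPM) lies below its non-neural median of 5659 RPM.

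Among epithelial miRNAs, the miR-200 family and miR-203 were scarce in the cerebellum library, unlike the intestinal names above, which were within the non-neural range. The miR-200 family, which maintains the epithelial state by repressing Zeb1 and Zeb2, had all 5 names called lower, beside 9.07% of all names, with a median log2 ratio of −6.23. The family summed to 41.5 RPM in cerebellum, 100.2 RPM in brain and 87.3, 4716 and 29609 RPM (small intestine) in the 12. miR-200c was at 21.2 RPM in cerebellum (23 reads, interval 13.5 to 31.9) and 33.9 RPM in brain, and at 31.1 (liver), 1667 and 16273 RPM (small intestine) in the 12, a median 78.5 times the cerebellum value. miR-141 had 3 reads in cerebellum, or 2.77 RPM (interval 0.571 to 8.09), against 5.50 (heart), 481 and 3988 RPM (small intestine). Apart from miR-200b, which was at 10.2 RPM in cerebellum and 3.42 RPM in ovary, each member lay below all 12, though none did at the upper limit of its counting interval, and 1 did with miR-143 kept in the totals. miR-203, a miRNA of stratified epithelium, was at 28.6 RPM in cerebellum and at 10.3, 849 and 25352 RPM (oesophagus) in the 12.

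Mesenchymal and Hox cluster names were also low. miR-199a-3p, known from fibroblasts and smooth muscle, was at 5.54 RPM in cerebellum (6 reads) and 18.7 RPM in brain, and at 30.1 (pancreas), 634 and 5962 RPM (colon) in the 12. miR-214, from the same transcript, had no read in cerebellum, which allows 2.77 RPM, and a median of 57.1 RPM in the 12. The mesenchymal list had a median log2 ratio of −5.86 over its 5 names, of which 4 reached 10 RPM in cerebellum or in any of the 12. Of these 4, 3 were called lower, beside 9.07% of all names at that level. Among the 3, miR-199a-3p and miR-199b share their sequence. The call of the other, miR-199a-5p, was lost with miR-143 kept in the totals and under median-of-ratios scaling. miR-10a, from the Hoxb cluster, was at 92.3 RPM in cerebellum (interval 75.1 to 112) and 9.44 RPM in brain, and at 83.7 (pancreas), 5154 and 32720 RPM (kidney) in the 12. miR-10b, from the Hoxd cluster, was at 36.9 RPM in cerebellum, 5.22 RPM in brain and 11.9 (liver), 1851 and 13711 RPM (kidney) in the 12. Both lay far below the non-neural median, yet cerebellum had 9.78 times the brain value of miR-10a (interval 6.85 to 14.1). Of the 38 names called lower, 30 were at least 2-fold below brain, beside 149 of all 419. At least 2-fold above it were 3, miR-10a, miR-10b and miR-145*, beside 94 of all 419. The cerebellum value enters both the rule for the 38 and the ratio to brain, so an excess below brain is partly built in. The counts for the 38 were made under the main scaling only.

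Names of blood, vessels and smooth muscle were lower in cerebellum, with exceptions. miR-142-3p, made in all leukocytes, was at 8.31 RPM in cerebellum (9 reads) and 72.9 RPM in brain, and at 15.1 (pancreas), 401 and 22075 RPM (spleen) in the 12. The leukocyte list had 2 of 5 names called lower, beside 9.07% of all names, and the call of miR-142-5p was lost with miR-143 kept in the totals. miR-150, a lymphocyte miRNA, was at 41.5 RPM in cerebellum, above the median of 24.7 RPM. miR-126-3p, from the endothelial gene Egfl7, was at 356 RPM in cerebellum and 5864 RPM in brain, and at 256 (pancreas), 8934 and 71736 RPM (lung) in the 12, a median 25.1 times the cerebellum value. miR-451, the main miRNA of red cells, was at 19.4 RPM in cerebellum and called lower, though not with miR-143 kept in the totals, and miR-486, also from red cells, was at 396 RPM and above its median. All 4 names of the smooth muscle list were called lower, beside 9.07% of all names. They are both arms of the miR-143 and miR-145 hairpins, and miR-143 itself is left out of the totals. Of these, miR-145 was at 36.9 RPM in cerebellum and at 8.56 (liver), 369 and 4709 RPM (stomach) in the 12. With miR-143 kept in the totals, miR-145, miR-145* and miR-143* lost the call, and miR-143* lost it under median-of-ratios scaling too.

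The miR-17~92 cluster and its paralogs, linked to cell division, were low. All 11 matched names, of 12 listed, were below the median of the 12, beside 38.2% of all names. Of the 11, 5 were called lower, beside 9.07% of all names, and the median log2 ratio was −2.46. With miR-143 kept in the totals miR-17 and miR-106b lost the call and miR-19b turned above the median (0.36), and miR-106b also lost it under median-of-ratios scaling. miR-20a had 2 reads in cerebellum (1.85 RPM) beside 89.7 RPM in brain, and 3.35 (pancreas), 228 and 878 RPM (spleen) in the 12. miR-17 was at 2.77 RPM in cerebellum and 60.2 RPM in brain, and at 5.02 (pancreas), 183 and 594 RPM (small intestine) in the 12. The paralog miR-93 was at 67.4 RPM in cerebellum and 378 RPM in brain, with a median of 1130 RPM in the 12. For miR-17 and miR-20a cerebellum lay below all 12, but not at the upper limits of their counting intervals.

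Several widely expressed miRNAs were low as well. miR-21, induced in many tissues by growth and injury, was at 1740 RPM in cerebellum and 2686 RPM in brain, and at 394 (pancreas), 32412 and 58775 RPM (uterus) in the 12, a median 18.6 times the cerebellum value. miR-27a was at 7.39 RPM in cerebellum (8 reads) and 143 RPM in brain, and at 77.0 (pancreas), 360 and 1699 RPM (lung) in the 12. miR-152, which shares the seed of miR-148a, was at 113 RPM in cerebellum and 235 RPM in brain, and at 588 (ovary), 2164 and 9150 RPM (pancreas) in the 12. Cerebellum lay below all 12 for miR-27a, miR-148a and miR-152. Taking the upper end of the counting interval in place of the cerebellum value left 10 of the 21 names below all 12.

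**Figure D5:**
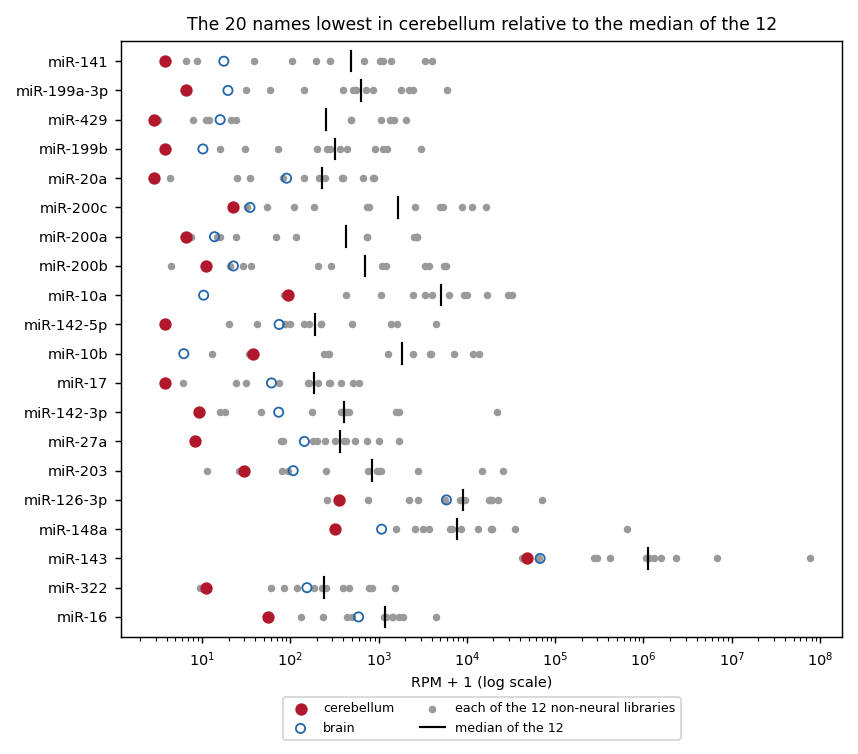
The 20 names called lower with the largest ratio of the median of the 12 to cerebellum, with RPM + 1 on a log scale: cerebellum (filled red), brain (open blue), each of the 12 non-neural libraries (grey) and their median (black tick). The miR-200 names lie near the left edge in cerebellum, between 1.85 and 21.2 RPM, and miR-143 is plotted on the same scale, at 47504 RPM in cerebellum.

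The arms of a hairpin were compared within a library, where scaling cancels and depth still sets the precision. Over 54 hairpins with 100 RPM in cerebellum, and with 100 RPM and 30 reads in at least 6 of the 12, the less abundant or starred arm took a larger share in cerebellum than in every such library in 16 (29.6%) and a smaller share than in every one in 1 (1.85%). In 10 of the 16 the interval in cerebellum also lay above the highest library, while in 6, among them miR-152 and miR-23b on 2 star reads each, it did not. The share of the highest library was taken without its own counting error. Whether the 10 are separated beyond the counting error of both libraries was not tested. For let-7d the star arm was 19.4% of the hairpin's reads in cerebellum (interval 17.6 to 21.4), 0.126% in brain and 0, 0.339 and 1.66% (heart) in the 12. For miR-30e it was 46.4% in cerebellum (interval 45.4 to 47.4), 10.8% in brain and 5.30, 13.7 and 44.5% (oesophagus) in the 12. By level, let-7d* was at 297 RPM in cerebellum and 75.4 RPM at most in the 12 (lung), while let-7d was at 1232 RPM in cerebellum and 10967 RPM in brain. Of totals without miR-143, starred names as a whole took 2.06% in cerebellum, 1.08% in brain and from 0.0966% (pancreas) to 2.65% (lung) in the 12. For miR-127 the star arm took 3.10% in cerebellum (interval 2.96 to 3.25), 1.18% in brain and at most 2.86% in the 8 libraries compared (colon). That colon share is 1 star read beside 34 reads of miR-127. The single hairpin with a smaller share was miR-411, on 1 read of the star arm.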

How the data were processed

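Small RNA libraries of 14 mouse tissues, 1 pooled library each, were available as read counts for each miRNA name, in whole numbers, deposited by the authors without scaling. Per the labels' protocols, Trizol RNA was pooled and libraries followed the usual Illumina procedure. Not given in the sources used here were trimming, aligner, miRNA release, genome build and the handling of reads shared by near-identical miRNAs.

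Counts were divided by the library total without miR-143 and scaled to RPM. Groups followed the tissue labels, and brain was kept out of the 12. With 1 library per tissue, fixed rules of size replaced tests. The floor for a count of 0 was 3 reads. Intervals at 95% are exact Poisson (RPM), conditional binomial (ratios) and Clopper-Pearson (shares). No molecular identifiers are named, so these cover counting error only.

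Named miRNAs were all members of 25 lists (200 memberships, 193 matched), the 15 most abundant, the 25 called higher and 20 called lower with the largest ratios, and their partner arms. Members and lists were chosen with earlier results of these data known. The arm shares, the division of Dlk1-Dio3, ratios between names, and the value of let-7d* were chosen after values were seen. Old names were matched to RefSeq arms by hand for 47 names. The hairpin GC of names called lower is not given, since fewer than 80% had an annotated hairpin. Scripts ran in Python 3.11.15 with pandas 2.3.3, NumPy 2.4.6, SciPy 1.17.1 and Matplotlib 3.10.9, and the calls were run on simulated counts. The simulation gave all libraries the same mean levels apart from set changes in cerebellum. It therefore did not test the rules against spread between tissues. Alternatives covered scaling, pseudocount, minimum level, fold and each left-out library.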

Additional observations from a re-analysis of the deposited data

How the results depend on the processing

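No paired analysis was possible because each tissue has a single library. With miR-143 kept in the totals, which shifts the median log2 ratio over all names by 0.85, 25 names were lower and 7 below all 12 (against 38 and 21), 50 were higher, and the miR-29 list median became 0.18 against −1.07. Median-of-ratios scaling (shift 0.18) gave 44 below all 12, 43 higher and 35 lower. Leaving miR-378 out as well (shift 0.14) gave 41 higher and 40 lower. All 35 higher names were kept with miR-143 in the totals, 33 under median-of-ratios scaling and 34 without miR-378. A 2-fold rule gave 55 higher names, and a 10-fold rule 24. Leaving out each library in turn gave 35 to 39 higher, 37 to 45 lower, 125 to 137 above and 21 to 42 below all 12, where the 42 came without pancreas. After the data were seen, 2 further settings were added: libraries under 3 reads of a name set at 3 reads gave 31 higher (miR-204, miR-204*, miR-344 and miR-433 were lost), and the upper counting limit gave 10 below all 12. The cause of these shifts was not tested. Depth limits names of few reads: 1 read in colon is 11.6 RPM, so a highest value there can rest on a single read.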

Other observations

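Values in other groups add to the profile. miR-7b, a neuroendocrine miRNA, was at 541 RPM in cerebellum and 426 RPM in brain, with a median of 4.53 and a highest value of 195 RPM (uterus) in the 12. The miR-183 cluster, known from sensory cells, summed to 523 RPM in cerebellum and 80.7 RPM in brain, with a median sum of 2045 RPM in the 12. For miR-28 the star arm took 95.4% of the hairpin's reads in cerebellum (interval 93.8 to 96.6), 59.6% in brain and from 66.3 to 85.5% in the 11 libraries compared. miR-423-5p was at 686 RPM in cerebellum, 23.3 RPM in brain and 358 RPM at most in the 12 (colon). miR-7b and miR-423-5p were chosen for mention after their values were seen.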
